A study of Mus musculus with 6 samples.

Results

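The genes described here encode 9 enzymes that make, salvage or degrade the deoxynucleotides used for DNA synthesis, namely *Tyms*, *Dut*, *Rrm1*, *Rrm2*, *Tk1*, *Dtymk*, *Dctd*, *Dck* and *Samhd1*. They were taken by symbol from the 54838 genes of the count table, and all 9 were found and were among the 11092 genes with enough counts to be tested. RNA was sequenced from sorted murine AML cells of the I1DN model, which carries IDH1R132H, DNMT3AR882H and NrasG12D on a C57BL/6 background, in 3 mice given vehicle and 3 mice given AG636. AG636 is an inhibitor of dihydroorotate dehydrogenase (DHODH), a mitochondrial enzyme of *de novo* pyrimidine synthesis, and was given by oral gavage b.i.d. at 100 mg/kg body weight. All 6 mice were sub-lethally irradiated Ptprca recipients of cells of this leukemia, which was made by transduction of fetal liver progenitors with the mutant alleles. Cells came from bone marrow and spleen. The sort gate is named cKit-high CD11b-low in one place of the study and cKit+CD11b- in another. For the sequencing of these cells the paper gives a single day of treatment, while several days are given in another place of the study. The labels state neither the ages of the mice nor how many animals contributed to a library.

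Deoxynucleotides are made mainly from ribonucleotides by ribonucleotide reductase, a complex of a large catalytic subunit (*Rrm1*) and a small subunit that carries the radical (*Rrm2*). Thymidine nucleotides need further steps, in which dUMP is formed from dCMP by dCMP deaminase (*Dctd*) or from dUTP by dUTPase (*Dut*), methylated to dTMP by thymidylate synthase (*Tyms*) and phosphorylated by thymidylate kinase (*Dtymk*). Thymidine kinase (*Tk1*) and deoxycytidine kinase (*Dck*) salvage deoxynucleosides, and SAMHD1 hydrolyses dNTPs back to deoxynucleosides. Several of these genes are known targets of E2F factors and are highest in S phase, and ribonucleotide reductase takes its pyrimidine substrates from the pool that DHODH feeds.

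The transcripts of dCMP deaminase and dUTPase, which form dUMP from dCMP and dUTP, were lower with AG636, *Dctd* by 45% and *Dut* by 34.6%. That of *Samhd1*, the dNTP hydrolase, was higher by 36.9%. *Tyms*, *Tk1* and *Dck* did not pass the test and had log2 fold changes of -0.01, 0.10 and 0.20. *Rrm1*, *Rrm2* and *Dtymk* had negative log2 fold changes, from -0.48 to -0.36, that did not pass after adjustment over all genes. Of the 9 members, 2 passed downwards and 1 passed upwards, where 11.0% and 10.3% of the 11092 genes tested passed in these directions (edgeR's quasi-likelihood fit over all genes, with p adjusted by Benjamini-Hochberg and a threshold of 0.05). The 3 vehicle and 3 AG636 samples did not overlap for the same 3 members, where 41.1% of all genes tested did not overlap. The median log2 fold change was -0.36 over the members and 0.03 over all genes tested. Bulk counts cannot tell fewer cells of a type from less RNA per cell.

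**Figure D1:**
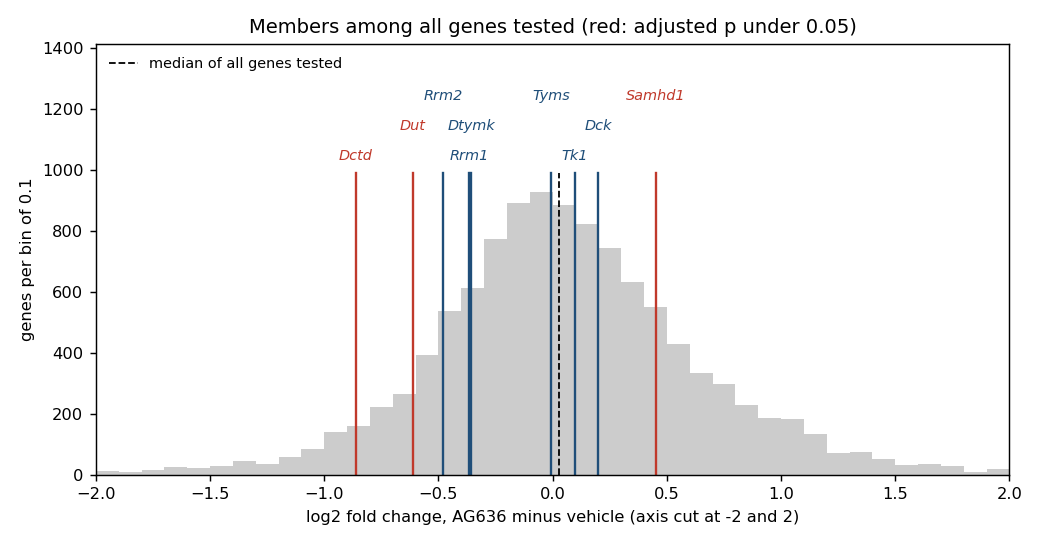
The x axis is the log2 fold change of AG636 against vehicle, and the grey bars count genes per bin of 0.1 over the 11092 genes tested, with the axis cut at -2 and 2. Lines mark the 9 members, red where the adjusted p was under 0.05 and blue elsewhere, the dashed line the median of all genes, and run from *Dctd* at -0.86 to *Samhd1* at 0.45, on both sides of that median at 0.03.

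Stretches of genomic sequence just before the annotated start sites of 4 members are shown first, because E2F-like letters or a CCAAT box, elements known from promoters of S-phase genes, were found in these windows. Capitals mark E2F-like letters, which were TTCCCGC, or alternatively TTCGCGC, or alternatively TTGCCGC, or else the form TTGGCGC, and the CCAAT box, on either strand, so that a match on the other strand reads as its reverse complement. Each window is written in the direction of transcription from 250 bases before the RefSeq start (GRCm38.p6). It stops before the first exon base in the annotation of the count table.
Rrm1, chr7:102441445-102441694, plus strand: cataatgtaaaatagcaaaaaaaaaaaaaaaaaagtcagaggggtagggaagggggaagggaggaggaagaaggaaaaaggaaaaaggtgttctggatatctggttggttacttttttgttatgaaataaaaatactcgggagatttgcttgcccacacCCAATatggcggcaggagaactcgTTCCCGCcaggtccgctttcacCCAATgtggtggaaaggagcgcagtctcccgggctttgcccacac
Rrm2, chr12:24708004-24708240, plus strand: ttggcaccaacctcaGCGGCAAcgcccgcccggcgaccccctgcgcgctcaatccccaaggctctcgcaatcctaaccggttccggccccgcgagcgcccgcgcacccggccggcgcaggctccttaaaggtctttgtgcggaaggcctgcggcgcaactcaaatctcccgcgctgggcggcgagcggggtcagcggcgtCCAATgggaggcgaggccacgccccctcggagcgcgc
Dtymk, chr1:93801935-93802184, minus strand: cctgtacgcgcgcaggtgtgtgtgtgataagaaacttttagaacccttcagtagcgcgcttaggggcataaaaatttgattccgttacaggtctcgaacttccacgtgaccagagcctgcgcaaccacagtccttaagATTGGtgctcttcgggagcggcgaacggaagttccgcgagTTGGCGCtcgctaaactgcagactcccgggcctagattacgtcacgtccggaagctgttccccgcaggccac
Dctd, chr8:48109708-48109957, plus strand: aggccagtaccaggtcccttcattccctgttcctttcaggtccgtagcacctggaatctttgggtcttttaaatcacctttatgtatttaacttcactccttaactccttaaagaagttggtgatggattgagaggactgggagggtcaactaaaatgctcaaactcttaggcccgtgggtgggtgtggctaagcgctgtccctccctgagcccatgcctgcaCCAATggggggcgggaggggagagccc
E2F-like letters were found in the windows of *Rrm1*, *Rrm2* and *Dtymk* and a CCAAT box in these and in *Dctd*, which has 3 annotated starts and whose box began 27 bases before the start used here. That start lies inside the annotated gene. The window before the first base of *Dctd*, chr8:48098842-48099091, held no E2F-like match and no CCAAT box. In *Rrm1* the E2F-like match began 67 bases before the start, between CCAAT boxes that began 91 and 45 bases before it. In *Rrm2* the CCAAT box began 50 bases before the start and the E2F-like match, on the other strand, spanned the bases from 235 to 229 before it. In *Dtymk* the matches began 72 bases (E2F-like) and ended 108 bases (CCAAT, other strand) before the start. None of these letters was found in the windows of *Tyms*, *Dut*, *Tk1*, *Dck* or *Samhd1*, and the cell cycle homology region letters TTTGAA or TTCGAA were found in the window of *Dck* only. The search covered all 250 bases of each window, exon bases included. Annotated exons covered 170 of these bases in *Dut*, 169 in *Samhd1*, 78 in *Tk1*, 17 in *Dck* and 13 in *Rrm2*. The stretch printed for *Rrm2* therefore ends 13 bases before the start from which its distances are counted. The *Dut* window began past the annotated start of the gene, so no sequence before that gene was searched. Among all 32851 promoter windows of this length, 7.89% held an E2F-like match, 33.8% a CCAAT box and 17.1% the TTTGAA or TTCGAA letters. These matches are descriptions of the sequence, were looked up after the values of the members were known and say nothing of binding.

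*Dctd* and *Dut*, whose enzymes form dUMP from dCMP and dUTP, were the members with the lowest log2 fold changes. *Dctd*, on chromosome 8 from 48099092 to 48153233 of mm10, encodes dCMP deaminase. Its level was 18.9, 15.4 and 17.3 CPM (read counts scaled to a common library size by the TMM method) in vehicle replicates 1 to 3 and 9.98, 9.90 and 8.50 CPM in AG636 replicates 1 to 3. Every AG636 sample lay below every vehicle sample, and the lowest vehicle sample was 5.45 CPM above the highest AG636 sample. The means were 17.2 ± 1.74 and 9.46 ± 0.836 CPM (SD, n = 3 mice each). On the log2 scale the fold change of *Dctd* was -0.86 (standard error 0.20, 95% interval -1.31 to -0.41), with an adjusted p of 0.0172 (edgeR). Of all genes tested, 5.08% had a lower log2 fold change. *Dctd* was the least abundant member, with 447 counts over the 6 libraries. Its adjusted p was 0.0508 without vehicle replicate 1 and 0.0687 without AG636 replicate 3.

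*Dut*, on chromosome 2 from 125247190 to 125258608, encodes dUTPase, which removes dUTP so that uracil is kept out of DNA. It had 616.9, 462 and 544 CPM in the vehicle samples and 391.7, 359 and 311 CPM in the AG636 samples. The groups did not overlap, and vehicle replicate 2, the lowest of its group, was still 70.5 CPM above AG636 replicate 1, the highest of the other group. The means were 541 ± 77.4 and 354 ± 40.4 CPM (SD, n = 3 mice each). For *Dut* the log2 fold change was -0.61 (standard error 0.14, 95% interval -0.92 to -0.31, adjusted p = 0.0146, edgeR). *Dut* was the most abundant member, with 14832 counts in all and a vehicle mean above that of 97.7% of the genes tested. Its adjusted p was 0.0612 without AG636 replicate 3.

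*Tyms*, on chromosome 5 from 30058202 to 30073617, encodes the enzyme that uses the dUMP made by these steps. It had 143, 140.5 and 157 CPM with vehicle and 166, 136 and 136 CPM with AG636. AG636 replicate 1 was the highest of all 6 samples and the other two AG636 samples were the lowest, so the groups overlapped. The means were 146.6 ± 8.82 and 146.0 ± 17.6 CPM (SD, n = 3 mice each). The log2 fold change was -0.01 with a 95% interval from -0.29 to 0.28 (adjusted p = 0.980, edgeR). Changes within these bounds remain possible for *Tyms*, and the interval is not a limit of detection. A processed pseudogene of this gene, *Tyms-ps*, had 3 counts in all.

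*Dtymk*, on chromosome 1 from 93792576 to 93801934, encodes thymidylate kinase, which takes dTMP from both the *de novo* and the salvage route to dTDP. It had 161, 119.8 and 159 CPM with vehicle and 122, 117 and 104 CPM with AG636. Vehicle replicate 2 lay within the range of the AG636 samples, and the other two vehicle samples lay above it. The means were 147 ± 23.3 and 114 ± 9.22 CPM (SD, n = 3 mice each). The log2 fold change was -0.36 (standard error 0.14, 95% interval -0.68 to -0.04), and the unadjusted p of 0.0325 did not pass over all genes (adjusted p = 0.101, edgeR). Without vehicle replicate 2 the log2 fold change was -0.50 and the adjusted p 0.0485.

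**Figure D2:**
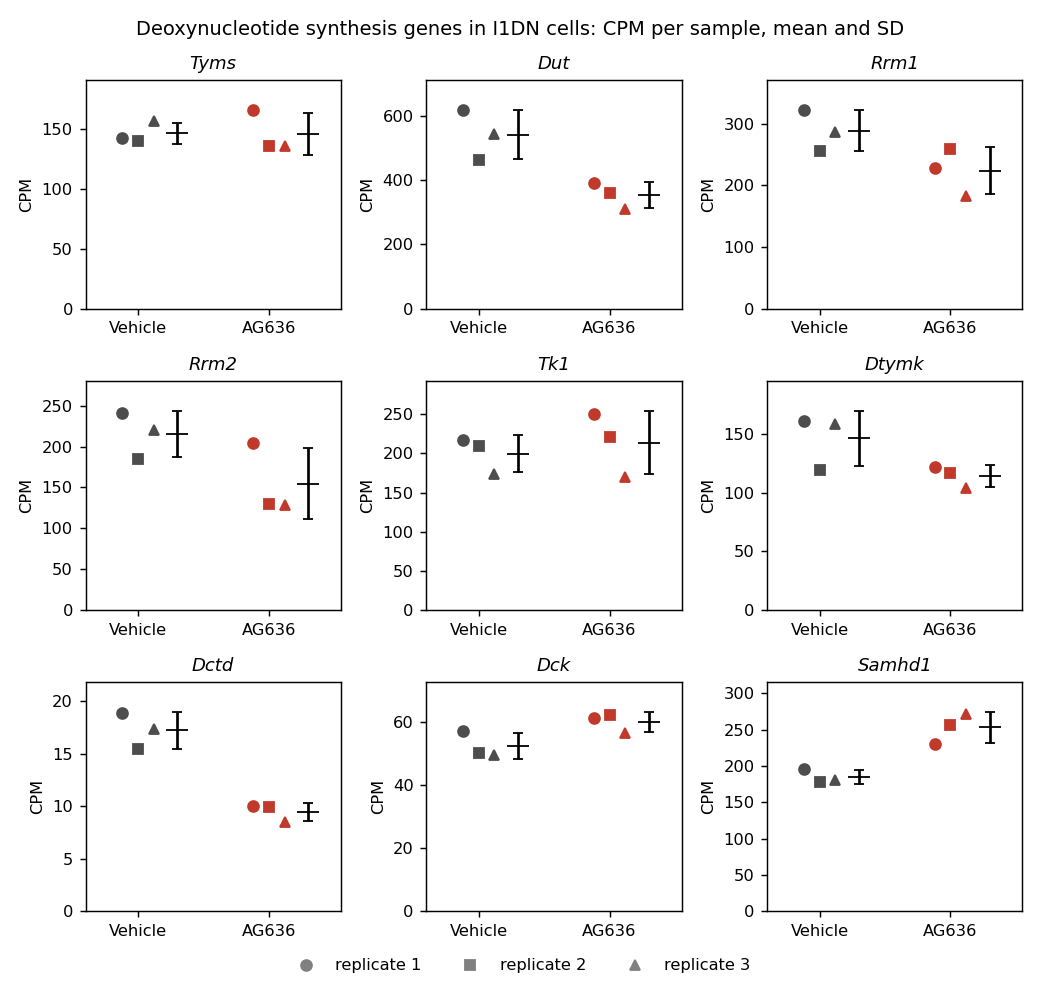
Each panel shows the level of a member in CPM on an axis from 0, for the 3 vehicle (grey) and 3 AG636 (red) samples, with the group mean and SD beside the points and the symbol of a point giving the replicate number. The groups do not overlap for *Dut*, *Dctd* and *Samhd1* and overlap for the other 6 members.

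The subunits of ribonucleotide reductase had lower means with AG636, with overlap between the groups. *Rrm1*, the large subunit, on chromosome 7 from 102441695 to 102469771, had 323, 256.1 and 285 CPM with vehicle and 228, 259.2 and 183 CPM with AG636. AG636 replicate 2 lay just above vehicle replicate 2, and AG636 replicate 3 was the lowest. The means were 288 ± 33.3 and 224 ± 38.3 CPM (SD, n = 3 mice each), and the log2 fold change was -0.37 (95% interval -0.70 to -0.03, adjusted p = 0.103, edgeR).

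*Rrm2*, the small subunit whose protein is limiting and confined to S and G2 phase in cycling cells, lies on chromosome 12 from 24708241 to 24714146. It had 241, 185 and 221 CPM with vehicle and 205, 130.3 and 129 CPM with AG636. AG636 replicates 2 and 3 were below all vehicle samples, and AG636 replicate 1 lay within the vehicle range. The means were 215 ± 28.4 and 154 ± 43.4 CPM (SD, n = 3 mice each). In the fit, the log2 fold change of *Rrm2* was -0.48 with a 95% interval from -0.90 to -0.06 (adjusted p = 0.0937, edgeR). It was -0.74 without AG636 replicate 1, with an adjusted p of 0.0266, and with no filter on low counts the adjusted p of *Rrm1* and *Rrm2* was 0.0399 and 0.00594 (edgeR). *Rrm2b*, the alternative small subunit that serves quiescent cells and is a target of p53, was the less abundant of the small subunits by far, with 224 counts over the 6 libraries, at 6.46 ± 0.642 and 7.25 ± 1.72 CPM (SD, n = 3 mice each), and did not pass the test (adjusted p = 0.705, edgeR).

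The salvage kinases did not pass the test. *Tk1*, on chromosome 11 from 117815526 to 117826092, phosphorylates thymidine in the cytosol and had 217, 209 and 173 CPM with vehicle and 249.8, 221 and 169.7 CPM with AG636. The AG636 samples spanned the vehicle range on both sides. *Tk1* had a log2 fold change of 0.10 (standard error 0.16, 95% interval -0.25 to 0.45, adjusted p = 0.691, edgeR). Exons of *Tk1* overlap *Afmid* on the opposite strand, which had 15 counts against 6792.

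*Dck*, on chromosome 5 from 88764996 to 88783281, phosphorylates deoxycytidine and also activates cytarabine, a nucleoside drug used against AML. It had 57.2, 50.4 and 49.7 CPM with vehicle and 61.4, 62.5 and 56.6 CPM with AG636. Vehicle replicate 1 lay just above AG636 replicate 3 and the other two vehicle samples lay below all AG636 samples. The log2 fold change was 0.20 (standard error 0.13, 95% interval -0.09 to 0.49, adjusted p = 0.302, edgeR).

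*Samhd1*, on chromosome 2 from 157097533 to 157135265, was the member that rose. It encodes the hydrolase that lowers dNTP pools, is abundant in myeloid and resting cells and also inactivates the triphosphate of cytarabine. It had 196, 177 and 181 CPM with vehicle and 230.2, 257 and 272 CPM with AG636. Every AG636 sample was above every vehicle sample, with a gap of 34.1 CPM. The means were 185 ± 9.97 and 253 ± 21.1 CPM (SD, n = 3 mice each). *Samhd1* had a log2 fold change of 0.45 (standard error 0.11, 95% interval 0.20 to 0.71, adjusted p = 0.0225, edgeR), and 78.1% of all genes tested had a lower one. Its adjusted p was 0.0819 without vehicle replicate 2, 0.0561 without vehicle replicate 3 and 0.0864 without AG636 replicate 3.

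Markers of mature myeloid cells moved with the groups. Of 10 neutrophil markers, 10 had positive log2 fold changes and 7 passed upwards, where 10.3% of all genes tested passed in this direction (edgeR). The summed level of the 10 was 1050 to 2390 CPM with vehicle and 2920 to 5940 CPM with AG636. *S100a8* and *S100a9* had the highest vehicle means among them, at 986 and 655 CPM. *S100a8* itself overlapped between the groups and did not pass (adjusted p = 0.0872, edgeR). Of the monocyte and macrophage markers, 7 were tested, 7 had positive log2 fold changes and 2 passed upwards, and their sum was 64.0 to 110 and 150 to 245 CPM. Of 8 erythroid markers, 8 had negative log2 fold changes and 2 passed downwards, where 11.0% of all genes tested did. Their sums were 1150 to 2370 and 911 to 1820 CPM. *Itgam*, a neutrophil marker that encodes CD11b, by which the cells were sorted as low or negative, had 19.1 CPM with vehicle and 44.2 CPM with AG636 and a log2 fold change of 1.21 (adjusted p = 0.0219, edgeR). *Kit*, the other receptor of the gate, had 38.6 and 42.8 CPM, and none of the 7 immature myeloid markers tested passed. The immature list had sums of 2440 to 4950 and 1820 to 5150 CPM, with *Mpo* the highest. Most of the lymphoid markers had too few counts to be tested, such as *Cd3e* with 6 and *Ebf1* with 23 over all libraries. The single B cell marker tested, *Cd79b*, had 10.5 CPM with vehicle and 15.4 CPM with AG636, and its list summed to 5.35 to 14.0 and 13.2 to 19.1 CPM. Of the T and NK cell markers tested, *Nkg7* had 273 and 390.2 CPM and *Il2rb* 3.02 and 3.51 CPM, with sums of 195 to 330 and 257 to 496 CPM, and none of these 3 markers passed. No marker of these lists was at 0 in every library, and the part of these cells in the levels of *Samhd1* or of the other members was not tested. The marker with the most counts over all libraries was *S100a8* among the neutrophil markers, *Cd68* (1716, beside 1633 for *Ly6c2*, which was higher than *Cd68* with vehicle) among the monocyte and macrophage markers and *Hbb-bt* (15980, beside 15911 for *Hba-a1*) among the erythroid markers.

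Total counts ranged from 4634963 to 7906589 per library, and 3 counts corresponded to between 0.392 and 0.637 CPM, a floor that covers counting error only and lies below every member. On principal component 1, with 58.6% of the variance, the samples at the ends were vehicle replicate 1 (-49.7) and AG636 replicate 3 (41.2). AG636 replicate 2 stood apart on principal component 2, with 16.7% of the variance, at 34.6 against -15.1 to 8.87 for the other samples. Without it *Dut*, *Dctd* and *Samhd1* had log2 fold changes of -0.62, -0.90 and 0.44 and adjusted p of 0.0252, 0.0281 and 0.0423 (edgeR). Without AG636 replicate 3 no member passed, and 3 members had an unadjusted p under 0.05, where 28.5% of all genes in that fit did (edgeR). In that fit 452 genes passed downwards and 399 upwards over the whole table, against 1222 and 1146 with all samples. Of the 9 members, 6 had an unadjusted p under 0.05 with all samples, where 37.1% of all genes tested did.

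Ratios between members within a library do not depend on how libraries are scaled. The log2 ratio of *Rrm2* to *Rrm1* was -0.42, -0.47 and -0.37 with vehicle and -0.16, -0.99 and -0.51 with AG636, so the subunits kept nearly the same proportion in the vehicle samples and varied among the AG636 samples. The means were -0.42 ± 0.05 and -0.55 ± 0.42 (SD, n = 3 mice each), with a two-sided exact permutation p of 0.7. The log2 ratio of *Rrm2b* to *Rrm2* was -5.05 ± 0.20 and -4.41 ± 0.52, a difference of 0.65 (exact permutation p = 0.2, n = 3 mice each). The ratio of *Tk1* to *Tyms*, the salvage and the *de novo* source of dTMP, was 0.44 ± 0.26 and 0.54 ± 0.20 (exact permutation p = 0.6, n = 3). That of *Dck* to *Tk1* was -1.93 ± 0.13 and -1.81 ± 0.22 (exact permutation p = 0.5, n = 3). Over the 4 ratios the adjusted p was 0.7 for each, and 0.1 is the smallest p that 3 mice against 3 allow.

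Ratios of neighbouring steps were chosen after the values of the members were seen and are given without a test. The log2 ratio of *Dut* to *Tyms* was 2.11, 1.72 and 1.80 with vehicle and 1.24, 1.40 and 1.20 with AG636, and that of *Dctd* to *Tyms* was -2.92, -3.19 and -3.18 with vehicle and between -4.06 and -3.78 with AG636. In every AG636 library the transcripts of *Dut* and *Dctd* were therefore lower relative to that of thymidylate synthase than in any vehicle library. With *Tyms* at -0.01, these differences of -0.6 and -0.85 repeat the log2 fold changes of *Dut* and *Dctd* alone, -0.61 and -0.86. The ratio of *Dtymk* to *Tyms* overlapped between the groups, with means of -0.01 ± 0.20 and -0.35 ± 0.12. The ratio of *Samhd1* to *Dck*, which act in opposite directions between deoxynucleosides and their phosphates, was 1.78 to 1.87 with vehicle and 1.91 to 2.26 with AG636.

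**Figure D3:**
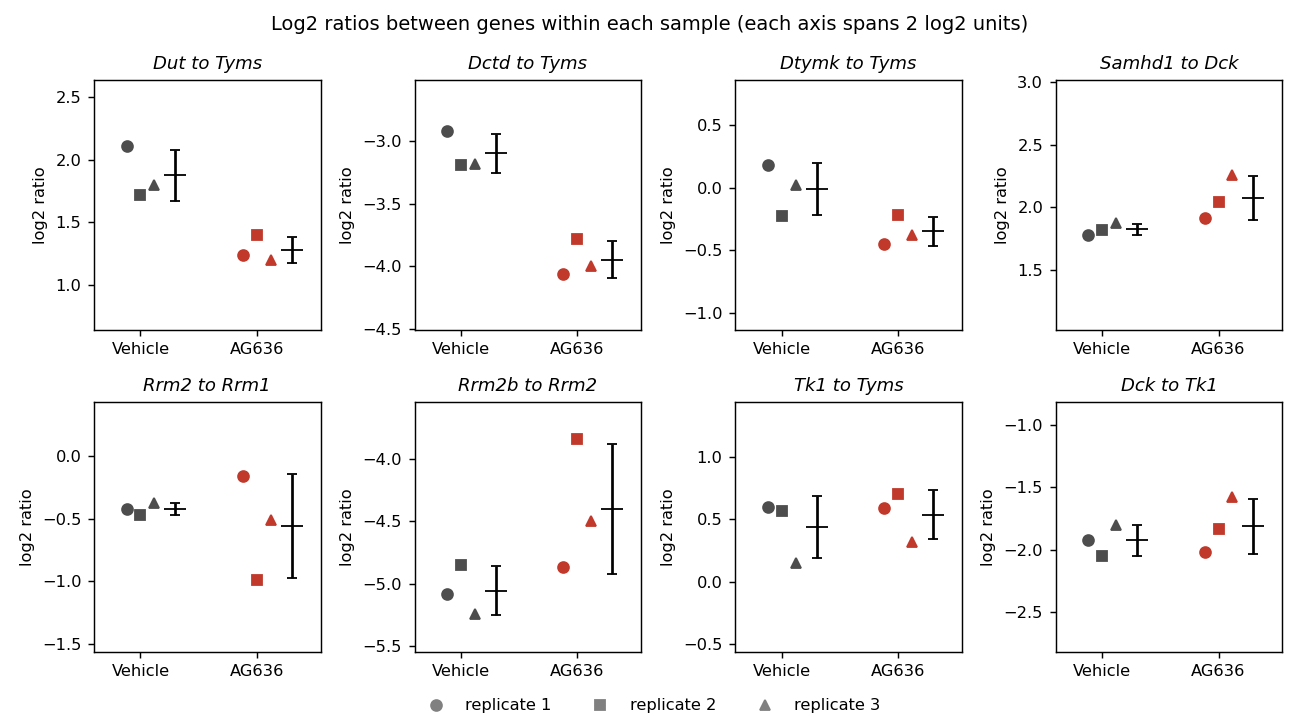
Each panel shows the log2 ratio of CPM of a pair of genes in each of the 3 vehicle (grey) and 3 AG636 (red) samples with the group mean and SD, and every axis spans the same range of 2 log2 units. In the upper row *Dut* to *Tyms* and *Dctd* to *Tyms* are lower in all AG636 samples, at no more than 1.40 and -3.78, and in the lower row all 4 ratios overlap between the groups.

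Members also differed in which AG636 sample departed most. Relative to the vehicle mean on the log2 scale, AG636 replicate 3 was lowest for *Dut* (-0.79), *Dctd* (-1.02), *Rrm1* (-0.65), *Rrm2* (-0.74), *Dtymk* (-0.48) and *Tk1* (-0.23), and highest for *Samhd1* (0.56). AG636 replicate 1 differed least for *Rrm2* (-0.07) and was above the vehicle mean for *Tyms* (0.18) and *Tk1* (0.33). The profile of *Dut* over the 6 samples was most like those of *Nup85*, *Polq* and *E2f6*, with root mean square differences in centred log2 CPM of 0.0201, 0.0434 and 0.0600. That of *Dctd* was most like those of *Slc52a2*, *Eprs* and *Rars* (0.0147, 0.0358 and 0.0426), and that of *Samhd1* most like those of *Cc2d1a*, *Tmem168* and *Rere* (0.0443, 0.0552 and 0.0577). *Tk1* was most like *Clspn*, at 0.0195. Low differences are found easily among 11092 genes and 6 samples and are a description only.

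Of 23 other genes of deoxynucleotide metabolism, 21 were tested, and 6 of these were lower with AG636 and 0 higher (edgeR), where 11.0% and 10.3% of all genes passed. At an unadjusted p under 0.05, 11 were lower and 1 higher, DESeq2 called 7 lower and 0 higher, and with library size alone 5 were lower and 1, *Nt5c*, was higher. Their median log2 fold change was -0.34. Among those that were lower were nucleoside diphosphate and monophosphate kinases, *Nme1* (-0.78), *Nme6* (-0.66) and *Guk1* (-0.70), the serine hydroxymethyltransferase *Shmt1* (-0.76), which makes the folate used by thymidylate synthase, and the dCTP pyrophosphatase *Dctpp1* (-0.54). The mitochondrial kinases *Tk2* and *Dguok* had 0.37 and -0.25 and did not pass. Without AG636 replicate 3 only *Nme1* of the 21 passed downwards and 0 upwards, and 4 to 7 passed downwards when any other library was left out. *Tk2* and *Dguok* were chosen for mention after their values were seen. Exons of *Shmt1* and *Smcr8* overlap on opposite strands, with 1264 and 481 counts, and whether the counting used the strand is not stated. Those of *Nme1* overlap *Gm20390* on the same strand, with 11270 and 0 counts, and how reads shared by both were counted is not stated.

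**Figure D4:**
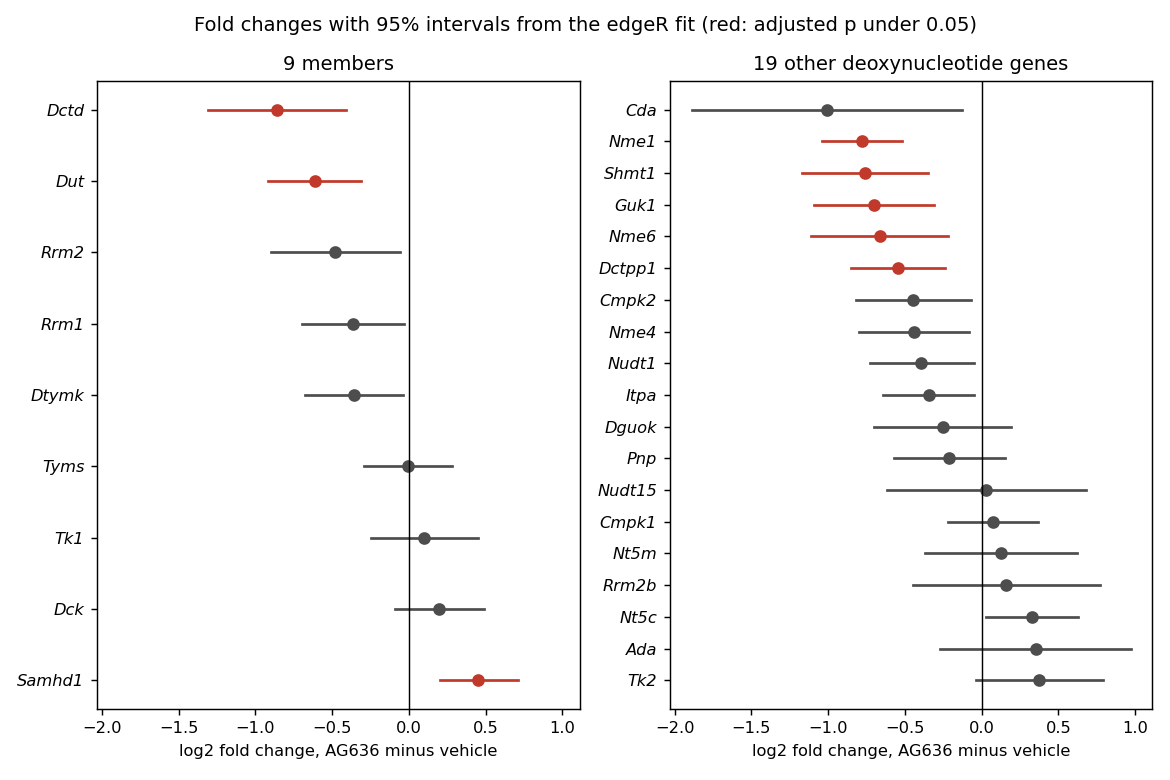
Points are log2 fold changes of AG636 against vehicle from the edgeR fit and lines their 95% intervals, for the 9 members (left) and 19 of the 21 other deoxynucleotide genes tested (right), red where the adjusted p was under 0.05. On the left 2 members lie below 0 and 1 above 0 in red, and on the right 5 genes lie below 0 in red.

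The pathway that AG636 blocks upstream was lower at 4 of its 5 genes, *Cad*, *Dhodh*, *Umps* and *Ctps*, with log2 fold changes from -0.84 to -0.70, and 2 genes of the pathway were past the threshold without AG636 replicate 3. *Ctps2* had 0.48 (adjusted p = 0.0901, edgeR). The members were also set beside 27 genes of DNA replication in S phase, of which 5 were lower, 0 higher and 22 did not pass, where 11.0% and 10.3% of all genes tested passed in these directions, with a median log2 fold change of -0.26 against -0.36 for the members. The 3 called genes with the largest change were *Cdc6* and *Cdt1*, which license origins, and *Mcm5*, a subunit of the replicative helicase, at -0.72, -0.63 and -0.45. *Dctd* lay below and *Samhd1* above the range of this list, from -0.72 to 0.20, *Dck* lay at its upper end, and the other members lay within it. At an unadjusted p under 0.05, 11 were lower and 0 higher, and DESeq2 called 7 lower and 0 higher. Leaving out vehicle replicate 1 or AG636 replicate 3 left 0 of the 27 genes past the threshold (edgeR), with 9 and 6 at an unadjusted p under 0.05, and 1 and 2 were lower without vehicle replicate 2 or AG636 replicate 2. The part of S phase in the members' levels was not tested.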

How the data were processed

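RNA was measured in 6 libraries of sorted I1DN cells, 3 from vehicle and 3 from AG636 treated mice, grouped by their labels. Per the study's methods, 3′ (QuantSeq) libraries were read single-end, trimmed and aligned to mm10, and reads were counted per gene, so that values do not scale with gene length. The submitters' processing notes name cutadapt 1.9.1, HISAT2 2.0.4 and Subread 1.5.0-p3, and the study's text gives other versions of cutadapt and Subread. The annotation release, the use of strand and the treatment of multiply aligned reads are not given in the sources used here. The authors deposited raw counts per gene, not normalized, with a gene length column that was used only to check the annotation. No molecular identifiers are described, so the floors cover counting error only.

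From these counts, genes were kept by filterByExpr (minimum count 10, minimum total 15), scaled by TMM and tested with edgeR 4.0.16 (quasi-likelihood, R 4.3.3) with Benjamini-Hochberg adjustment over the 11092 genes kept and a threshold of 0.05. The study names limma, which was run as voom (limma 3.58.1) beside DESeq2 1.42.0, median-of-ratios size factors, library size alone, other filters, a replicate block, leave-one-out fits and a threshold of 0.01. CPM used TMM-scaled library sizes, and ratios were compared by exact permutation. Scripts were tested on simulated data. Symbols were matched for 54723 of 54838 identifiers, and all 9 members had the same span in the annotation used for names. The members were named in full, together with the called genes of the other deoxynucleotide and *de novo* pyrimidine lists, up to 3 called genes with the largest change in each cell cycle list, the most abundant markers, and, for some members, up to 3 of the genes most alike to them. The members, lists and tests were chosen with earlier results of these data known. A few genes of these lists are counted but not reported here by name. P-values of the fit set the difference between the groups against the spread between these samples, estimated with information shared over genes. Those of the ratios come from the 20 splits of 6 samples into 3 and 3.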

Additional observations from a re-analysis of the deposited data

How the results depend on the processing

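Under DESeq2, limma-voom, median-of-ratios size factors, library size alone and the filter of at least 10 counts in every sample, *Dut*, *Dctd* and *Samhd1* kept their direction and stayed past the threshold. With no filter on low counts 4 members were lower, *Rrm1* and *Rrm2* being added, where 1620 of the 21371 genes tested were lower. At an adjusted p under 0.01, 0 members were lower and 0 higher (6 had an unadjusted p under 0.05), with 325 genes lower and 231 higher over the whole table (edgeR's quasi-likelihood test). Leaving out single samples gave 0 to 3 members lower and 0 to 1 higher, a median over the members of -0.46 to -0.24, and 452 to 1298 genes lower and 399 to 1074 higher over the whole table. The log2 fold change of *Tyms* was 0.08 with library size alone, under which the median of all genes was 0.12, and -0.11 to 0.04 when single samples were left out, and that of *Tk1* was -0.03 to 0.24. The difference between groups in log2 ratio was then -0.33 to 0.09 for *Rrm2* to *Rrm1* (0.09 without AG636 replicate 2), 0.37 to 0.88 for *Rrm2b* to *Rrm2*, -0.05 to 0.20 for *Tk1* to *Tyms* (-0.05 without vehicle replicate 3) and 0.00 to 0.22 for *Dck* to *Tk1*. The cause of these shifts was not tested.

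Samples with the same replicate number are different mice, and their deviations from the group means correlated at -0.06, -0.18 and 0.22 across genes. Pairs with different numbers ran from -0.38 to 0.36. Deviations within a group of 3 sum to 0, so these correlations constrain each other and cannot decide whether equal numbers share a batch. The samples were treated as unpaired in the main fit. With a replicate block 3 members were lower and 1 higher, *Rrm2* having a log2 fold change of -0.50 and 0.043 as its adjusted p (edgeR), and 1046 and 914 genes passed over the whole table. Among the vehicle samples only replicate 3 correlated best with the AG636 sample of its own number, and no AG636 sample correlated best with its own number. The standard errors of *Tyms*, *Tk1* and *Dck* were 0.13, 0.16 and 0.13 in log2 units, beside a median of 0.195 over all genes. They limit what 3 mice a group can show for changes as small as those of these genes.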

Other observations

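Of 24 genes of G2 and M phase, 4 were higher with AG636, 0 were lower and 20 did not pass, where 10.3% and 11.0% of all genes tested passed in these directions, with a median log2 fold change of 0.12 (edgeR's quasi-likelihood test, 0 lower and 4 higher at an unadjusted p under 0.05, and 0 lower and 4 higher by DESeq2). The largest changes were those of *Nusap1* (0.67) and *Ccnb2* (0.55), a mitotic spindle protein and a B-type cyclin, and of *Kif23* (0.53), a motor of cytokinesis. From 1 to 4 of the 24 were higher when single samples were left out, the 1 being without vehicle replicate 2 or AG636 replicate 3.

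Of 13 E2F and pocket protein genes, 2 were higher and 0 lower, beside the same shares of all genes (edgeR's quasi-likelihood test, 3 lower at an unadjusted p under 0.05, and 2 lower by DESeq2). These were *Rbl2*, which encodes the pocket protein p130 of quiescent cells, and *E2f7*, a repressive E2F. *Rbl2* had 42.8 ± 0.452 and 91.1 ± 10.3 CPM (SD, n = 3 mice each) and a log2 fold change of 1.09, and *E2f7* had 33.9 ± 5.96 and 64.7 ± 3.49 CPM and 0.93. The number of genes of this list called higher was 2 in every leave-one-out fit. *Nme2*, which encodes an abundant nucleoside diphosphate kinase, had 1 count over the 6 libraries, and its exons overlap those of *Gm20390* on the same strand, which had 0 counts.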
